A study of Mus musculus with 13 samples.

Results

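Mitochondrial ribosomal proteins are the protein components of the ribosome inside mitochondria. They were taken here as the measured genes whose symbols run Mrpl or Mrps and a number, for the large (Mrpl) and small (Mrps) subunit, with pseudogenes left out. The rule found 77 genes, 48 Mrpl and 29 Mrps, among the 19938 genes measured. RefSeq lists 78 protein-coding genes of this kind in the mouse, and Mrpl53 was not measured because its only probe set is annotated to several genes. The rule used symbols and no measured value.

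Femoral bone marrow was taken from male C57BL/6 mice, 6 weeks old. Phlebotomised mice had lost 500 µL of blood from behind the eye, and 3 controls stood for the baseline. The 10 samples taken after phlebotomy were 1 at 4 h, 3 at 9 h and 2 each at 12, 15 and 48 h. The labels used here give no sham puncture and no hour of day, and they do not say whether the samples of a group were separate animals, so the p-values below measure only how far these samples scatter, for which technical causes may do. Each sample was hybridised to its own Affymetrix Mouse Gene 1.0 ST array, and all values are log2 levels.

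The numbers in the sample titles form 2 runs, of 10 and 3 arrays. The smaller run holds control replicate 3 and 9 h replicates 1 and 2, and the larger run all others, with control replicates 1 and 2. Levels were compared only within a run. The median level of all genes on an array was 7.30 to 7.40 in the larger run and 8.13 to 8.14 in the smaller, and in the smaller 75.6% of genes shared 1 value between at least 2 of its 3 arrays. Marrow markers were bright on all 10 arrays of the larger run, as with the erythroid gene Alas2 (12.90 to 13.18) and the neutrophil gene S100a8 (13.15 to 13.56). Some arrays also held transcripts of other tissues, as set out beside the results they touch.

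The mitochondrial ribosome translates the few proteins that mitochondrial DNA encodes, all of them subunits of the oxidative phosphorylation complexes. Its RNAs come from mitochondrial DNA, while its proteins are encoded in the nucleus, made on cytosolic ribosomes and imported. Red cell precursors in the marrow need mitochondria for the first and last steps of haem synthesis, and dividing precursors of every lineage have to make new mitochondria.

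Most of these genes had higher fitted levels 9 to 15 h after bleeding, each by a small amount. In the mean of 9, 12 and 15 h against control, 73 of 77 had a fitted change above 0, against 49.1% of all genes, and the median change was 0.17 on the log2 scale (12.6%), against −0.0022 over all genes. After adjustment over all genes 1 member passed the test, where 0.652% of all genes rose. This was Mrps22, a small subunit protein, which rose 1.36-fold and passed in 18 of 27 alternatives of the processing. Some of the 18 left its fit unchanged, such as the platform's symbols or leaving out the 4 h array, and could not lose the call. Mrps28 had a change of similar size and did not pass. At 48 h the median was 0.13, and no member passed there, where 0.326% of all genes rose.

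The regions where these genes start are shown first. RefSeq (GRCm38.p6) gave windows of 250 bases before to 50 after a start for 68 of the 77 members. The lines below give 140 bases before to 30 after the start, read along the gene, for 5 members. Mrps22 is shown as the member that passed. Mrpl21 has the next largest change among members with a window, Mrpl18 starts 238 bases from the start of a chaperone gene, Mrpl36 has the largest change among those with the YY1 letters in the part shown, and Mrps12 has the lowest signed change. Capitals mark the letters searched: CCGGAAG for ETS factors such as GABPA, AAGATGGC for YY1, CACGTG for the E-box, GGGCGG for SP1, CCAAT for NF-Y, or their reverse complements.
Mrps22, chr9:98601650-98601819, minus strand: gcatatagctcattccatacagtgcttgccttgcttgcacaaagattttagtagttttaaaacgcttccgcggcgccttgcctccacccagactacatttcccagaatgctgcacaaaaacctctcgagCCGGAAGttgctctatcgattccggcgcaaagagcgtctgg
Mrpl21, chr19:3282902-3283071, plus strand: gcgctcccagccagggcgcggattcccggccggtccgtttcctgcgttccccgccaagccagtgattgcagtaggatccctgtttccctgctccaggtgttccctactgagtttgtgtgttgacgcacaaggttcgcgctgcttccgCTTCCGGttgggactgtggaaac
Mrpl18, chr17:12916062-12916231, minus strand: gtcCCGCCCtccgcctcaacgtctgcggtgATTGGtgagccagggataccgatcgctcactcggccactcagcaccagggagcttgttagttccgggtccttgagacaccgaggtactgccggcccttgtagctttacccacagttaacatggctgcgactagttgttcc
Mrpl36, chr13:73330869-73331038, plus strand: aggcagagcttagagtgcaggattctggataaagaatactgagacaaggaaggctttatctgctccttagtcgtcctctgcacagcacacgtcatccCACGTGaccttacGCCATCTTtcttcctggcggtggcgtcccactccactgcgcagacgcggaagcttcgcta
Mrps12, chr7:28741792-28741961, minus strand: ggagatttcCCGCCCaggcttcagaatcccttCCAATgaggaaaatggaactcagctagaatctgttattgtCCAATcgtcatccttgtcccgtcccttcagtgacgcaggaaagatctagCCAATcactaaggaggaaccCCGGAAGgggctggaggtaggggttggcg

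The ETS letters stood 11 bases before the Mrps22 start, 8 bases after the Mrpl21 start on the other strand and 2 bases after the Mrps12 start. The YY1 letters stood 30 bases before the Mrpl36 start on the other strand. Mrps12 held CCAAT 3 times, at 108, 68 and 19 bases before its start. None of the searched motifs contains another. A match is a description of these letters and not a site shown to be bound.

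Over the whole windows of 300 bases, on both strands, the ETS letters were in 25 of 68 members (36.8%), against 13.8% of 15012 measured coding genes and 8.86% of all 32851 windows. The YY1 letters were in 12 members (17.6%), against 3.82% of coding genes and 2.75% of all windows. The motif of NRF1, a regulator of nuclear genes for mitochondria, was found in 3 members (4.41%), against 1.67% of coding genes and 0.971% of all windows. These 3 motifs were found in a larger share of members than of coding genes.

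The other 4 motifs were about as frequent in members as in coding genes. The E-box of MYC was in 5 members (7.35%, against 9.57% of coding genes and 7.15% of all windows) and the SP1 letters in 34 (50%, against 53.7% and 35.7%). CCAAT was in 26 (38.2%, against 41.8% and 37.4%), and TGACGTCA, the CRE, in 2 (2.94%, against 2.72% and 1.79%). The median change at 9 to 15 h was 0.17 both in members with and in members without the ETS letters, 0.15 with and 0.17 without the YY1 letters, and 0.135 with and 0.18 without CCAAT. For the E-box, NRF1, SP1 and CRE it was 0.17 to 0.18 with and 0.17 without. These differences were not tested.

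The start of another gene lay head to head, on the other strand within 1000 bases, for 24 of the 68 members (35.3%), against 9.18% of measured coding genes. Mrpl46 and Mrps11, of the large and small subunit, faced each other at 42 bases. Other members faced genes with a part in mitochondria, such as Mrps12 with Sars2 (the mitochondrial seryl-tRNA synthetase, 147 bases), Mrpl43 with Twnk (the mitochondrial DNA helicase, 116 bases) and Mrpl47 with Ndufb5 (a complex I subunit, 308 bases). The median change at 9 to 15 h was 0.19 in the 24 members with such a neighbour and 0.16 in the rest.

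The facing genes mostly did not have the members' change. In the 21 pairs with a measured neighbour outside the family, the member's median change was 0.19, with 19 above 0. The neighbour's was −0.0066, with 10 above 0 (background 49.1% of all genes) and 0 past the adjusted threshold. The member's change was above its neighbour's in 20 of the 21, though by little for Mrpl18 and Mrps12. The members as a family lay above most genes, so this count is not particular to facing genes, and it was not tested. Mrpl21 (0.37) and Ighmbp2 (−0.06), whose starts lie 32 bases apart, had unlike values. Mrpl18 (0.28 ± 0.06 SE, limma adjusted p = 0.0651) and Tcp1, a subunit of the cytosolic chaperonin (0.28 ± 0.06, adjusted p = 0.0607), had like values, and Mrps12 (−0.03) and Sars2 (−0.03) were both near 0.

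The changes below come from 1 limma fit to all 13 arrays and 19938 genes with a term for the run, and every time is set against the same 3 controls. A gene is said to have risen or fallen where its p, adjusted over all genes by Benjamini-Hochberg, was under 0.05. Beside most counts over the whole family stands the share of all genes that met the same condition. Counts within structural groups, gene lists and marker lists, and counts under alternatives of the processing, mostly stand without such a share beside them.

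**Figure D1:**
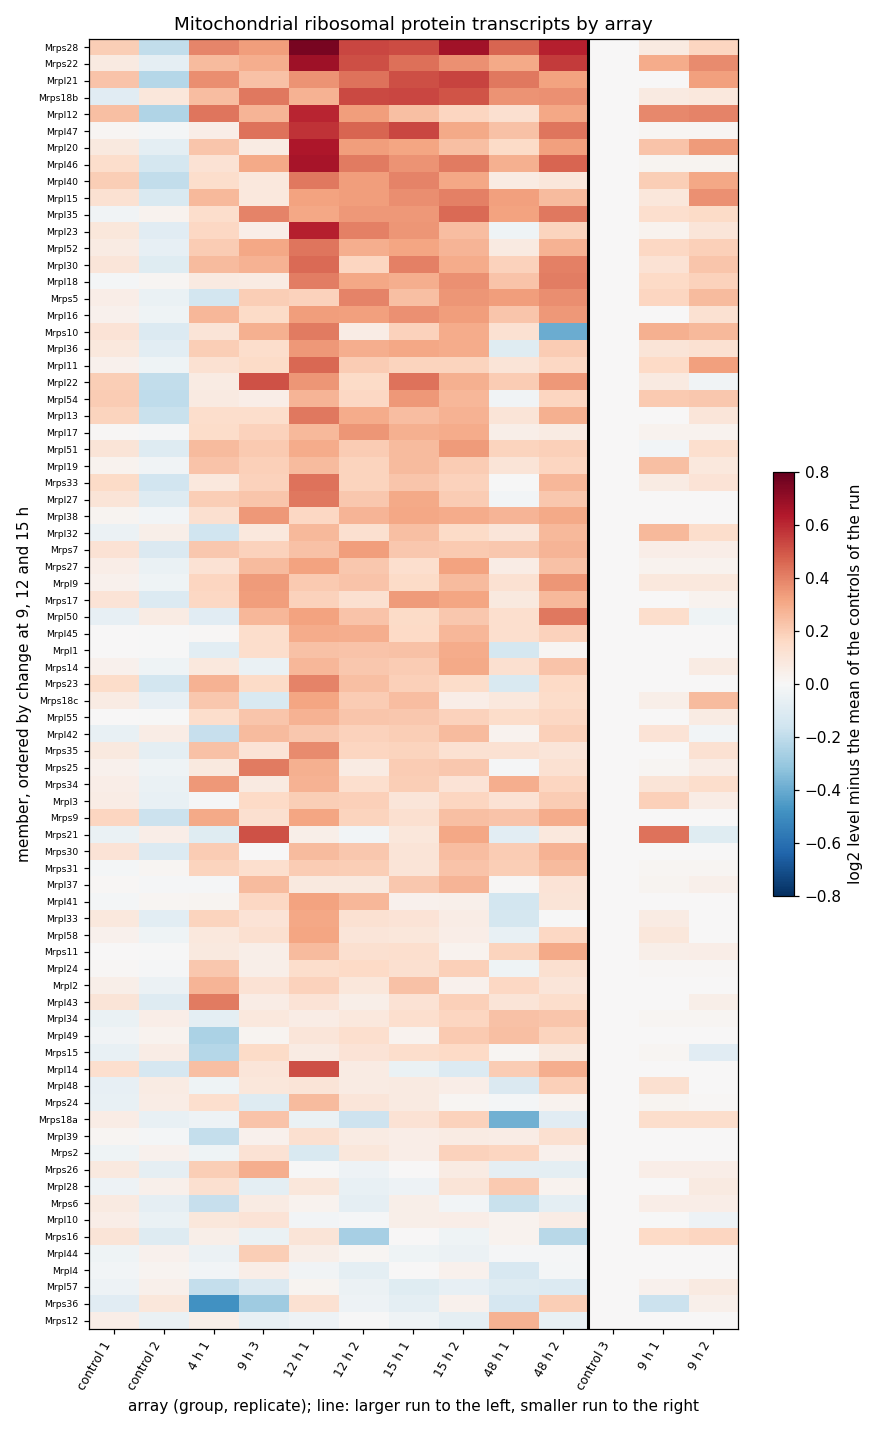
Each row is 1 of the 77 members, ordered by its fitted change at 9, 12 and 15 h, and each column 1 array, with the larger run left of the line; colour gives the log2 level minus the control mean of the run, from −0.8 (blue) to 0.8 (red). Most cells at 9, 12 and 15 h in the larger run are red, control 3 is 0 by construction as the only control of its run, and many cells of the smaller run are at 0, where 36 members had tied values.

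Array by array, the median of the 77 members stood above the control mean on every phlebotomy array. In the larger run it was 0.05 on control replicate 1 and −0.05 on control replicate 2, which between themselves differed by a member median of −0.10 (replicate 2 minus replicate 1; all genes, 0.01). It was 0.13 at 4 h, 0.14 at 9 h, 0.27 and 0.18 at 12 h, 0.19 and 0.21 at 15 h, and 0.10 and 0.19 at 48 h. The median of all genes lay between −0.0051 and 0.0361 on these 10 arrays. No phlebotomy array overlapped the controls in this median, although the lowest, 48 h replicate 1, stood only 0.05 above control replicate 1. The SD of the member median between replicate arrays of a group was 0.0522 (5 degrees of freedom).

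The 2 arrays at 9 h in the smaller run had member medians of 0.03 and 0.05 above their single control. On them 50 and 53 members lay above the control and 24 and 18 were tied with it. Of all genes 22.5% and 19.4% lay above and 55% and 58.1% were tied, so ties lower the share above more for all genes than for members. A tie counts as 0 in these medians, and 36 members (46.8%) shared 1 value between at least 2 of its 3 arrays.

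**Figure D2:**
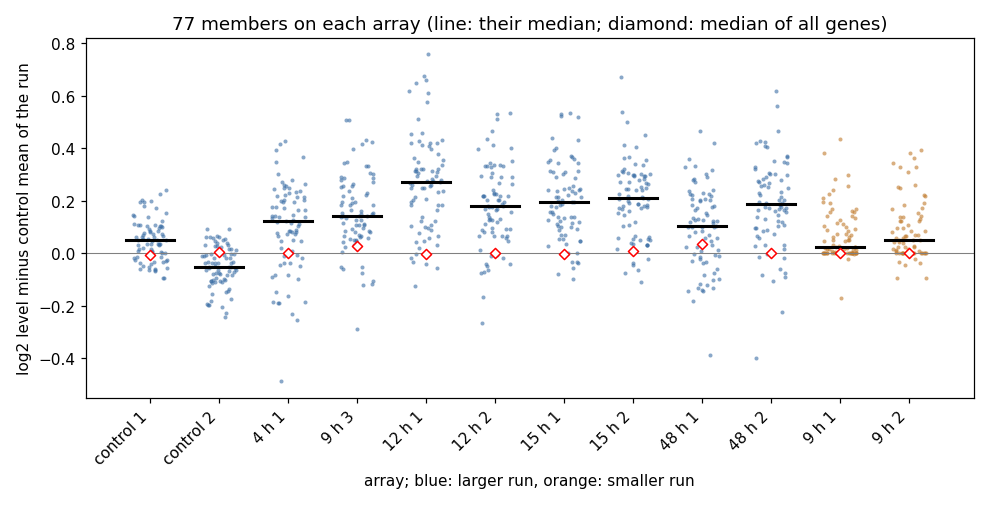
Each point is 1 member on 1 array, as log2 level minus the control mean of its run (blue, larger run; orange, smaller run), with a line at the members' median and a diamond at the median of all genes. The members' medians at 9 to 15 h in the larger run lie from 0.14 to 0.27 while the diamonds stay near 0, and points at 0 in the smaller run are tied values.

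Arrays were also counted against both controls of the larger run. The 9 h array lay above both for 57 members (74%, against 40.9% of all genes), both 12 h arrays for 59 (76.6%, against 20.1%) and both 15 h arrays for 58 (75.3%, against 20.3%). All 5 arrays at 9, 12 and 15 h in the larger run lay above both controls for 44 of 77 members (57.1%), against 9.24% of all genes, and all 5 lay below for 0 members, against 6.71% of all genes. For 27 of the 44 both 9 h arrays of the smaller run were above their control too (35.1% of members, against 3.32% of all genes), among them Mrps22, Mrps28, Mrps18b, Mrpl18, Mrpl35, Mrpl46 and Mrpl47. A tie with the control counts as not above here. Values shared between arrays of the smaller run were more frequent among all genes (75.6%) than among members (46.8%). With the 48 h arrays added, all 7 arrays lay above both controls for 32 members (41.6%, against 6.79%).

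The highest group mean in the larger run was at 12 h for 31 of 77 members (40.3%), against 11.5% of all genes. It was at 9 h for 17 (22.1%, against 25.3%), at 15 h for 12 (15.6%, against 11.1%), at 4 h for 8 (10.4%, against 20.2%) and at 48 h for 8 (10.4%, against 19.5%). The controls were highest for 1 member (1.3%, against 12.4%). The 12 h group holds 2 arrays, and 12 h replicate 1 had the highest member median of all arrays.

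By time, 0 members rose and 0 fell at 9 h (background 0.0502% and 0.0451% of all genes), at 12 h (0.0853% and 0.0201%) or at 15 h (0.211% and 0.0451%). At an unadjusted p under 0.05 the same limma fit had 13 members higher at 9 h (background 3.64%), 43 at 12 h (7.63%) and 31 at 15 h (7.23%), and 0 lower at each of these times (2.48%, 6.08% and 5.31%). The median member change was 0.11 at 9 h, 0.22 at 12 h and 0.19 at 15 h, against 0.0123, −0.0077 and −0.0072 over all genes, and 71, 67 and 72 members were above 0 (background 55.0%, 47.9% and 48.0%). Without 9 h replicate 3, the 9 h array of the larger run, the 9 h median was 0.049. In the mean of the 3 times 1 member rose and 0 fell (background 0.652% and 0.135%), while 45 were higher and 0 lower at an unadjusted p under 0.05 (7.39% and 4.61%). The changes ranged from −0.03 to 0.47, and the middle of them, from the lower to the upper quartile, from 0.09 to 0.25.

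**Figure D3:**
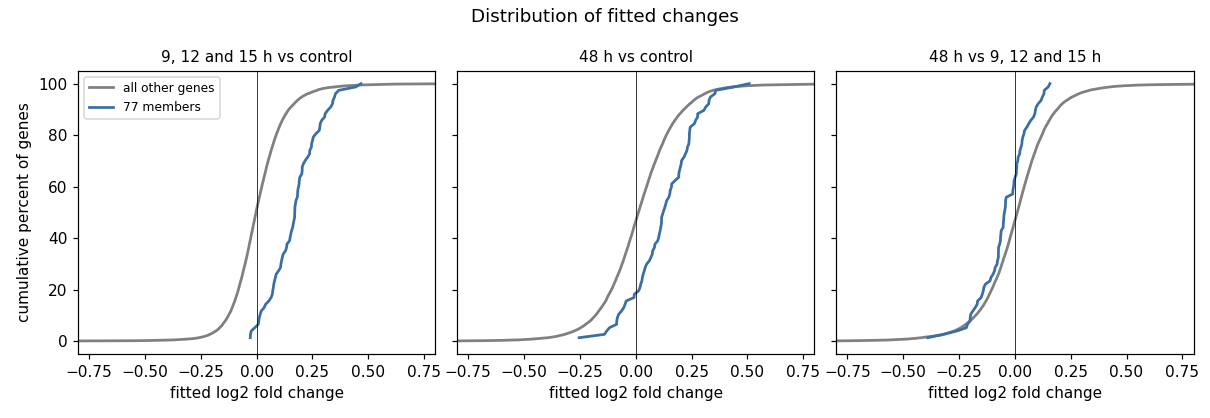
Each curve gives the cumulative percent of genes (y axis) up to a fitted log2 fold change (x axis), for the 77 members (blue) and all other genes (grey), in 3 contrasts. The members' curve lies to the right of the grey one at 9, 12 and 15 h (median 0.17) and at 48 h (median 0.13), and slightly to its left for 48 h against 9, 12 and 15 h (median −0.05).

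Of the small subunit proteins special to mitochondria, Mrps22, in which mutations cause a mitochondrial disease of early life, had the smallest p. Its level in the larger run was 8.69 and 8.54 in the controls, 8.87 at 4 h, 8.91 at 9 h, 9.29 and 9.13 at 12 h, 9.06 and 8.98 at 15 h, and 8.92 and 9.18 at 48 h. In the smaller run it was 9.17 in the control and 9.47 and 9.55 at 9 h. Every phlebotomy array thus lay above every control of its run. The change was 0.44 ± 0.07 (SE) in the mean of 9, 12 and 15 h (limma adjusted p = 0.0206), 0.60 ± 0.10 at 12 h (adjusted p = 0.0538) and 0.44 ± 0.10 at 48 h (adjusted p = 0.0965). The call was lost without the run term (0.38, adjusted p = 1), with array weights (0.46, adjusted p = 0.181), in the larger run alone (0.43, adjusted p = 0.138) or without its 48 h arrays as well (adjusted p = 0.128), and without control replicate 2 (adjusted p = 0.19), control replicate 3 (0.0622), 12 h replicate 1 (0.0646), 15 h replicate 1 (0.0685) or 15 h replicate 2 (0.055); those 5 left-out arrays gave changes of 0.40 to 0.46.

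Mrps18b, of the same group, was at 9.34 and 9.53 in the controls of the larger run and at 9.86 at 9 h, 9.72 and 9.97 at 12 h, 9.97 and 9.94 at 15 h and 9.79 and 9.80 at 48 h. Its 5 arrays at 9 to 15 h and its 2 at 48 h lay above both controls. The change at 9 to 15 h was 0.35 ± 0.08 (adjusted p = 0.0790). Among all 10 members of the group the change was above 0 in 10, and the median was 0.17. Mrps26 had the smallest change (0.03), and was at −0.12 ± 0.08 at 48 h (adjusted p = 0.563).

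The small subunit proteins with a bacterial counterpart were 16 members, with a median of 0.15 and 15 above 0. Mrps28 had the largest change of the family, 0.47 ± 0.09, but did not pass (adjusted p = 0.0526). It was at 8.43 and 8.04 in the controls of the larger run, 8.63 at 4 h, 8.57 at 9 h, 9.00 and 8.77 at 12 h, 8.76 and 8.91 at 15 h and 8.71 and 8.86 at 48 h. The phlebotomy arrays all lay above both controls, which themselves were 0.39 apart. In the smaller run its control was at 8.97 and its 9 h arrays at 9.05 and 9.15.

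Mrps12, which shapes the accuracy of decoding, had the lowest signed change of the family, −0.03 ± 0.07 (adjusted p = 0.909). Its controls in the larger run were at 6.96 and 6.85, its arrays at 9, 12 and 15 h between 6.83 and 6.90, and its 48 h arrays at 7.19 and 6.85. The values at 9 to 15 h lay near those of the lower control, and in the smaller run its 3 values were tied at 7.74. Mrps5 (0.27 ± 0.06, adjusted p = 0.0960) and Mrps10 (0.25 ± 0.11, adjusted p = 0.416) had like changes with unlike errors. Mrps36, a member by its symbol and known also as a part of the oxoglutarate dehydrogenase complex, was counted in none of the structural groups. Its change was −0.03 ± 0.09 (adjusted p = 0.931).

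**Figure D4:**
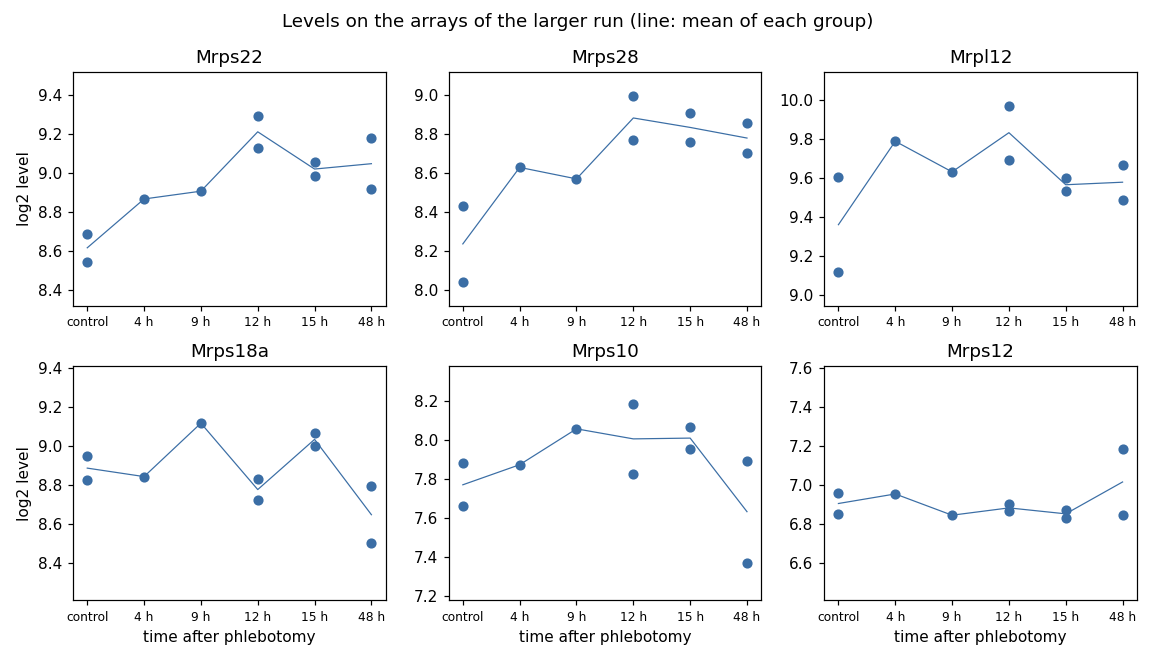
Each point is the log2 level (y axis) on 1 array of the larger run, by time after phlebotomy (x axis), with a line through the group means, for 6 members; the y axes span the same range of 1.2 around each gene's middle and do not start at 0. Mrps22 and Mrps28 are above both controls on every later array, Mrpl12 overlaps its controls, Mrps18a and Mrps10 have their lowest array at 48 h, and Mrps12 stays between 6.83 and 7.19.

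The large subunit proteins with a bacterial counterpart were 30 members, with a median of 0.21 and 29 above 0, and 0 past the adjusted threshold. Mrpl21 was at 7.74 and 7.28 in the controls of the larger run, 7.75 at 9 h, 7.87 and 7.94 at 12 h, 8.03 and 8.05 at 15 h and 7.93 and 7.83 at 48 h. It lay above both controls on all of these arrays, by only 0.01 at 9 h, and its change was 0.37 ± 0.10 (adjusted p = 0.153). Mrpl12, which forms the stalk of the large subunit and also binds the mitochondrial RNA polymerase, had controls at 9.60 and 9.12, with 9.63 at 9 h, 9.97 and 9.69 at 12 h and 9.60 and 9.53 at 15 h. These groups overlapped, since 15 h replicates 1 and 2 were both below control replicate 1, and the change was 0.35 ± 0.10 (adjusted p = 0.193).

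Mrpl47 and Mrpl20 came next in this group. Mrpl47 was at 7.72 and 7.68 in the controls and between 8.01 and 8.28 at 9 to 15 h, without overlap, with a change of 0.34 ± 0.09 (adjusted p = 0.114). A second probe set annotated to Mrpl47 was at −0.04 ± 0.06, so the probe sets for that gene disagreed. Mrpl20 was at 8.68 and 8.53 in the controls, 8.67 at 9 h, 9.26 and 8.95 at 12 h and 8.92 and 8.85 at 15 h, with a change of 0.34 ± 0.08 (adjusted p = 0.104). Its 9 h array lay within the controls. Mrpl4, a protein of the exit tunnel, was at −0.01 ± 0.05 (adjusted p = 0.965).

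The large subunit proteins special to mitochondria were 20 measured members, with a median of 0.13 and 19 above 0. Mrps30 and Mrps18a, named for the small subunit, sit in the large one and were counted here. Mrpl46 had the largest change, 0.33 ± 0.09 (adjusted p = 0.133), with controls at 8.18 and 7.89, 8.34 at 9 h, 8.70 and 8.45 at 12 h and 8.40 and 8.45 at 15 h, without overlap. Its head-to-head partner Mrps11 was at 0.11 ± 0.06 (adjusted p = 0.475). Mrps30 was at 0.14 ± 0.06 (adjusted p = 0.422), and Mrpl58, a peptidyl-tRNA hydrolase that frees stalled chains, at 0.11 ± 0.07 (adjusted p = 0.564).

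Mrpl44 (0.01 ± 0.05, adjusted p = 0.971) and Mrpl57 (−0.02 ± 0.05, adjusted p = 0.893) were at the low end of this group. Mrpl44 was at 6.98 and 7.04 in the controls and, in the larger run, between 6.96 and 7.20 at 9 to 15 h. These values overlapped. Medians of the 4 structural groups thus ran from 0.13 to 0.21, and differences between the groups were not tested.

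For the other 7 genes with a second probe set, the chosen and the second one were at 0.29 and 0.30 for Mrpl23, 0.27 and 0.28 for Mrps5, 0.20 and 0.20 for Mrps33, 0.21 and 0.27 for Mrpl51, 0.20 and 0.14 for Mrpl27, 0.12 and 0.07 for Mrpl41, and −0.03 and −0.11 for Mrps36. All of these had the same sign. Which transcripts each probe set detects, chosen or second, was not tested, so values of chosen probe sets may also come from other copies.

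At 4 h, with 1 array assumed to vary like the others, 0 members rose and 0 fell (limma; background 1.74% and 0.251% of all genes), and 9 were higher and 4 lower at an unadjusted p under 0.05 (8.02% and 7.21%). The median was 0.10 and 53 were above 0 (background 49.2%), and the array lay above both controls for 48 members (62.3%, against 35.7%). The median without control replicate 2 was 0.0558. Mrpl12 was highest (0.45 ± 0.17, adjusted p = 0.258) and Mrps36 lowest (−0.45 ± 0.15, adjusted p = 0.196). The 20 large subunit members special to mitochondria had a median of −0.0117 here, with 9 above 0.

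The 4 h array carried transcripts of other tissues. Of 16 small intestine markers 13 rose, and their summed linear level was 24140 there, against 1427 and 1588 in the controls. The summed level of 10 skeletal muscle markers was 11360, against 2988 and 3238, and none of the 10 passed. Of 11 liver markers 3 rose, with a sum of 5180 against 874.3 and 914.8. Their median was only 0.02, with 6 above 0, and Apoa1 stands in both the intestine and the liver list. The 11 erythroid markers had a median of −0.37 with 0 above 0 and 0 past the threshold, and a sum of 33750 against 36120 and 47560 in the controls. Of 11 B lineage markers 1 fell, Ebf1 (−0.57 ± 0.11, adjusted p = 0.0277), with a sum of 16230 against 17440 and 18670. An array gives no level of 0, so absence cannot be read from it. The part of these lists in the members' values at 4 h was not tested.

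At 48 h, 0 members rose or fell (background 0.326% and 0.0502%). At an unadjusted p under 0.05, 25 were higher and 1 lower in the limma fit (9.31% and 4.68%), and 63 were above 0 (53.5%). Mrps28 (0.51 ± 0.13, adjusted p = 0.137), Mrps22, Mrpl21 (0.36 ± 0.14, adjusted p = 0.278) and Mrps5 (0.35 ± 0.09, adjusted p = 0.125) had the largest changes. Mrps5 was at 8.55 and 8.44 in the controls of the larger run and at 8.82 and 8.86 at 48 h, which did not overlap.

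At the other end of the 48 h changes were Mrps18a (−0.25 ± 0.10, adjusted p = 0.280), Mrps10 (−0.14 ± 0.15, adjusted p = 0.732), Mrps6 (−0.13 ± 0.08, adjusted p = 0.486) and Mrps26. Mrps18a was at 8.95 and 8.82 in the controls, and at 8.50 and 8.79 at 48 h. Mrps10 was at 7.88 and 7.66 in the controls, and at 7.89 and 7.37 at 48 h, so its low value came from 48 h replicate 2 alone. Both arrays lay below both controls for 3 members (3.9%, against 16% of all genes) and above them for 42 (54.5%, against 24.2%).

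The comparison of 48 h with the mean of 9, 12 and 15 h had 0 members that rose and 0 that fell (limma; background 0.883% and 0.0953% of all genes), with 1 higher and 8 lower at an unadjusted p under 0.05 (9.63% and 6.16%). The median was −0.05, against 0.0106 over all genes, and 29 were above 0 (53.3%). The lowest were Mrps10 (−0.39 ± 0.13, adjusted p = 0.195), Mrps18a (−0.32 ± 0.08, adjusted p = 0.106), Mrpl1 (−0.26 ± 0.07, adjusted p = 0.0951) and Mrpl23 (−0.22 ± 0.09, adjusted p = 0.263). Mrpl1, a protein of the stalk by which tRNAs leave, was at 8.26 and 8.25 in the controls, between 8.40 and 8.55 at 9 to 15 h, and at 8.12 and 8.27 at 48 h.

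The highest in that comparison were Mrpl14 (0.16 ± 0.11, adjusted p = 0.525), Mrps12 (0.15 ± 0.08, adjusted p = 0.420), Mrpl34 (0.13 ± 0.06, adjusted p = 0.316) and Mrps11 (0.13 ± 0.07, adjusted p = 0.362). Mrpl34 was at 10.33 and 10.44 in the controls, between 10.45 and 10.56 at 9 to 15 h and at 10.62 and 10.61 at 48 h. The median without 48 h replicate 1 was 0.01, so a lower level at 48 h than at 9 to 15 h rested on that array.

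In whole marrow, fewer cells of a type and less RNA per cell cannot be told apart. The 11 measured erythroid markers had a median of −0.08 at 9 to 15 h, with 4 above 0, and of 0.31 at 48 h, with 11 above 0 and 0 past the threshold. Their summed linear level was 36120 and 47560 in the controls of the larger run, 38290 to 42580 at 9 to 15 h and 46400 and 50530 at 48 h. Of them Tfrc, the transferrin receptor, rose at 9 to 15 h (0.46 ± 0.09, adjusted p = 0.0453). The erythroid sums at 9 to 15 h in the larger run thus lay between those of its 2 controls. The part of erythroid cells in the members' values was not tested.

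Other marker lists were described in the same way. The 7 markers of megakaryocytes and platelets had a median of −0.14 at 9 to 15 h with 0 above 0, of which 1, Gp9, fell (−0.34 ± 0.06, adjusted p = 0.0314), and a median of 0.02 at 48 h. Their summed linear level was 21780 and 25550 in the controls, 18960 to 23550 at 9 to 15 h and 23090 and 23820 at 48 h. The 10 T and NK cell markers had medians of 0.05 at 9 to 15 h and −0.26 at 48 h (0 above 0), and the 12 macrophage markers −0.05 and −0.25 (0 above 0 at 48 h). The 14 neutrophil markers had a median of −0.02 at 9 to 15 h and −0.15 at 48 h, and the 11 B lineage markers −0.12 and −0.27. Of 16 small intestine markers 8 fell at 9 to 15 h, with sums of 827.6 to 933.9 against 1427 and 1588 in the controls. Of 11 liver markers 8 rose at 48 h, with sums of 4332 and 5548 against 874.3 and 914.8. The sum of 9 osteoblast and stromal markers was 11590 on the 9 h array of the larger run, 23750 to 31130 at 12 and 15 h, 14080 and 18920 at 48 h, and 21400 and 34190 in the controls. The sum of 10 skeletal muscle markers was 5078 on the 9 h array of the larger run and 1791 to 3835 at 12 and 15 h. It was 6328 and 1625 on 48 h replicates 1 and 2, and 2988 and 3238 in the controls. In the smaller run that sum was 6883 in the control and 2910 and 5060 at 9 h. The part of these lists in the members' values was not tested.

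Genes that serve the mitochondrial ribosome are known as factors for its translation, for its assembly and for the import of its proteins. Lists of them were described for the mean of 9, 12 and 15 h, against a background in which 0.652% of genes rose and 49.1% were above 0. Of mitoribosomal proteins with other symbols, 4 were measured and 0 passed: Chchd1 (0.46 ± 0.18, adjusted p = 0.343), Gadd45gip1 (0.35 ± 0.12, adjusted p = 0.258), Ptcd3 (0.27 ± 0.06, adjusted p = 0.0736) and Dap3 (0.04 ± 0.06, adjusted p = 0.840). All 4 were above 0.

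Of 13 translation factors 1 rose and 13 were above 0, with a median of 0.14. Mrrf, which recycles ribosomes after a chain ends, rose (0.39 ± 0.06, adjusted p = 0.0175), while Gfm1, an elongation factor, was at 0.25 ± 0.09 (adjusted p = 0.295). Of 27 assembly and rRNA modification genes 2 rose and 24 were above 0, with a median of 0.11. Noa1, a GTPase, rose by 0.56 ± 0.07 (adjusted p = 0.00386) and passed also at 12 h (0.58, adjusted p = 0.0497) and 15 h (0.64, adjusted p = 0.0180). Fastkd2, which binds the large subunit's RNA, rose too (0.47 ± 0.08, adjusted p = 0.0341). Of 7 mitochondrial transcription genes 0 passed and 4 were above 0, with a median of 0.08, Tfam at 0.21 ± 0.06 (adjusted p = 0.228).

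Among these lists of mitochondrial genes, that of 23 import components and matrix chaperones held the most calls. In it 5 rose and 23 were above 0, with a median of 0.19. The lists were chosen with earlier results of these data known, so their order is a description only. Hspe1 (0.66 ± 0.08, adjusted p = 0.00386) and Hspd1 (0.50 ± 0.06, adjusted p = 0.00683), which together form the folding chamber of the matrix, rose. So did Timm17a, a subunit of the inner membrane translocase (0.55 ± 0.06, adjusted p = 0.00337), Timm8a1, a small chaperone between the membranes (0.63 ± 0.10, adjusted p = 0.0175), and Hspa9, which pulls proteins into the matrix (0.49 ± 0.08, adjusted p = 0.0247). Timm17a rose also at 48 h (0.53 ± 0.08, adjusted p = 0.0251). Hspe1, Hspd1 and Timm17a passed at 12 h and at 15 h as well, so 3 of the 23 rose at each of these times.

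Subunits of the complexes that the mitochondrial ribosome helps to build, and the cytosolic counterparts of its proteins, had medians of similar or smaller size. Of 50 measured oxidative phosphorylation subunits encoded in the nucleus 0 passed in the limma fit, 20 were higher at an unadjusted p under 0.05 and 46 were above 0, with a median of 0.13. Ndufb6 (0.35 ± 0.13, adjusted p = 0.316) had the largest change and Ndufs3 (0.28 ± 0.06, adjusted p = 0.0560) the smallest p. Of 59 cytosolic ribosomal proteins 0 passed, 16 were higher at an unadjusted p under 0.05 and 54 were above 0, with a median of 0.12.

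**Figure D5:**
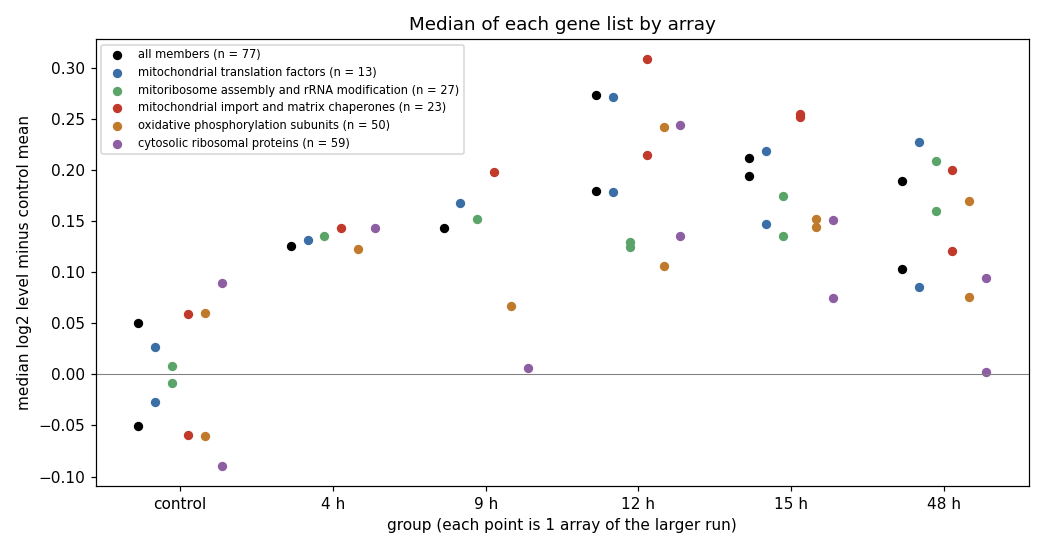
Each point is the median over 1 list on 1 array of the larger run, as log2 level minus control mean (y axis), by group (x axis), for the members, 4 mitochondrial lists and the cytosolic ribosomal proteins. The members' controls lie at −0.05 and 0.05 and their arrays at 9, 12 and 15 h from 0.14 to 0.27, the import list reaches 0.31 at 12 h, and the cytosolic list spans −0.09 to 0.09 in the controls and is at 0.01 at 9 h.

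On the 9 h array of the larger run the members' median was 0.14 and that of import and chaperones 0.20, while oxidative phosphorylation stood at 0.07 and cytosolic ribosomal proteins at 0.01, within their controls of 0.09 and −0.09. The smaller run did not have this order: on its 9 h arrays the members were at 0.03 and 0.05, import and chaperones at 0.13 and 0.12, oxidative phosphorylation at 0.03 and 0.07 and cytosolic ribosomal proteins at 0.05 and 0.09. On the 12 h arrays the cytosolic list was at 0.24 and 0.14. At 48 h the fitted medians were 0.13 for the members, 0.16 for translation factors, 0.11 for assembly, 0.12 for import and for oxidative phosphorylation, and 0.07 for cytosolic ribosomal proteins. Differences between lists were not tested.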

How the data were processed

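RNA of 13 samples was measured on 1-colour arrays. The deposited values are on the log2 scale; the authors used RMA, as the submitters' processing notes have it; its version and which arrays were normalized together are not given in the sources used here. Of 35557 probe sets, 21789 had 1 gene symbol, 1621 had several, from which nothing was named, and 12147 were not listed with a gene. For 21698 the symbol was taken from RefSeq by Entrez identifier. Each of 19938 genes was represented by its probe set of highest mean level.

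From these log2 values limma 3.58.1 (R 4.3.3) fitted 6 groups and a run term, with 6 residual and 4.62 prior degrees of freedom, in 7 contrasts, adjusted by Benjamini-Hochberg over all genes. The code of the fit was checked on data simulated from its own fitted values and spreads. Those data held no tied values, so this check does not bear on the p-values of these arrays. Figures used matplotlib 3.10.9 in Python 3.11.15. Precision is limited by the few arrays.

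The members and lists were chosen with earlier results of these data known. Named members are those past the threshold, the 8 highest and 5 lowest changes at 9 to 15 h, the 4 highest and lowest in both 48 h contrasts, and 6 chosen for role; from each list, genes past the threshold and the largest changes were drawn on. Others named were chosen after their values were seen. Promoters are RefSeq's (GRCm38.p6). Alternatives changed the run term, scaling, filters, moderation and arrays used.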

Additional observations from a re-analysis of the deposited data

How the results depend on the processing

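Of the counts and medians, 517 of the values under alternatives stayed near the reported one (medians within 0.0522, the SD between replicate arrays, and counts within 1.5 times), 33 moved and 5 changed sign; the cause was not tested unless given. Without the run term, which mixes arrays of unlike level, the median was −0.159 at 4 h, 0.389 at 9 h, −0.0531 at 12 h, −0.0783 at 15 h, 0.0879 in the mean of 9, 12 and 15 h, −0.147 at 48 h and −0.214 for 48 h against that mean, while all genes moved to −0.26, 0.27, −0.27, −0.26, −0.09, −0.24 and −0.16, so the members stayed above all genes except in the last. Members that rose in the mean of 9, 12 and 15 h numbered 0 without the run term, in the larger run alone, with array weights and in the larger run with the 48 h arrays left out (the last chosen after seeing the data), 4 with the run as a random block, 5 with dim genes left out, 3 after another quantile normalization, 2 after centring and 6 with trend and robust moderation. All genes that rose in that mean numbered 130 in the reported fit, 194 with the random block and 211 with dim genes left out. Fewer rose in settings with 0 members, such as 4 without the run term, 17 with array weights and 20 without control replicate 2. The 0 members there thus stand beside fewer calls over all genes. All genes that rose numbered 117 after quantile normalization, 114 after centring and 202 with trend and robust moderation. At 12 h members that rose numbered 2 with the random block (all genes, 77), and 1 with dim genes left out (46) and with trend and robust moderation (54). At 4 h 1 member rose after quantile normalization, where 350 of all genes rose. With array weights 3 members rose and 1 fell at 4 h, where 1017 of all 19938 genes rose and 835 fell. The 4 h median after centring was 0.0242, with all genes at −0.08. Without control replicate 1, all genes that rose numbered 793 at 4 h, 296 at 12 h, 395 at 15 h and 219 in the mean. With each array left out, members that rose numbered 0 to 7 in the mean of 9, 12 and 15 h (7 without control replicate 1, 0 without control replicate 2, 12 h replicate 1 or either 15 h array, 3 without control replicate 3), 0 to 6 at 12 h and 0 to 5 at 15 h (highest without control replicate 1), and 0 to 2 at 4 h; 1 fell for 48 h against 9 to 15 h without 48 h replicate 2, Mrps18a (−0.47, adjusted p = 0.048), and 0 otherwise. The medians then ran from 0.0558 to 0.13 at 4 h, 0.049 (without 9 h replicate 3) to 0.14 at 9 h, 0.17 to 0.27 at 12 h, 0.14 to 0.20 at 15 h, 0.12 to 0.21 in the mean, 0.0904 to 0.182 (without 48 h replicate 1) at 48 h, and −0.0833 to 0.0098 (without 48 h replicate 1) for 48 h against the mean. Mrps22 passed in 18 of 27 alternatives, some of which left its fit unchanged.

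Some named members changed sign. In the mean of 9, 12 and 15 h, Mrpl44 was at −0.115 without the run term and −0.0133 with array weights, and Mrpl4 at 0.006 in the larger run with or without the 48 h arrays. With single arrays left out Mrpl44 ran from −0.0325 to 0.0613, Mrpl4 from −0.0288 to 0.006, Mrps36 from −0.0894 to 0.053, Mrpl57 from −0.0713 to 0.0181 and Mrps12 from −0.0546 to 0.0099, each reaching these ends without 1 of the controls. For 48 h against that mean, Mrps12 was at −0.0423 and Mrps11 at −0.0398 without the run term, and Mrps12 ran from −0.0205 (without 48 h replicate 1) to 0.319 (without replicate 2). Mrps10 at 48 h ran from −0.401 (without 48 h replicate 1) to 0.121 (without replicate 2). Leaving out both 4 h replicate 1 and 9 h replicate 1, also chosen after seeing the data, kept every count and median near its value. No paired analysis was possible because the labels give no replicate numbers, and those used here follow sample order.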
